A study of Mus musculus with 8 samples.

Results

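Livers of flox mice that had eaten a high-fat diet were compared with livers of flox mice kept on regular chow. A gene was compared when it had at least 1 RPKM (reads scaled by transcript length and by the mapped reads of the library) in either flox group and was not listed at exactly 0 in either, and 9958 of 22923 gene symbols met this rule. The flox mice (genotype Xbp1flox, strain C57BL/6) were the controls of a study of mice that lack Xbp1 in the liver (genotype Xbp1-/-, same strain), and both genotypes were kept for 4 weeks on chow or on the diet rich in fat, which also supplied an equivalent of high-fructose corn syrup. Each of the 4 groups held 4 mice, whose liver RNA was pooled into 2 libraries. One deposited value per gene and group was analysed, so every difference below is between 2 pooled values, the spread between mice or libraries is unknown, and no test was made. The sources used here do not give the driver of the deletion, the sex or the age of the mice. The change of a gene is log2((high fat + 1)/(chow + 1)), in which the added 1 RPKM understates the change of genes with low levels. A gene rose or fell in this text when its log2 change was at least 1 in size, which is about 2-fold for a well expressed gene.

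The liver makes cholesterol from acetyl-CoA. The mevalonate pathway builds farnesyl diphosphate, and the sterol branch joins these units into squalene, closes the ring to lanosterol and trims it to cholesterol. The transcription factor SREBP2, encoded by Srebf2, drives the genes of both segments. When sterol is plentiful in the membrane of the endoplasmic reticulum, INSIG proteins hold SREBP2 and its escort SCAP there, and the genes are less active. The nuclear receptors LXR sense oxidised cholesterol and drive sterol export, including the paired transporters ABCG5 and ABCG8, and SREBP1c, the relative of SREBP2 that drives fatty acid synthesis.

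On the high-fat diet, the genes of cholesterol synthesis fell together and made up 12 of the 15 largest falls among the genes named by rule. Of 29 compared genes in the 3 lists of cholesterol synthesis, sensing and uptake, 17 fell and 0 rose, and those 17 kept between 5.82% and 42.3% of their chow level, with a median of 21.4%. The sterol exporters Abcg5 and Abcg8 rose, as did the lipoprotein gene Apoa4 and the lysophospholipid transporter gene Mfsd2a. The iron hormone gene Hamp, the retinoic acid hydroxylase gene Cyp26a1 and Selenbp2 fell. Most other genes moved little, and no gene of the bile acid, triglyceride synthesis, gluconeogenesis, urea cycle or endoplasmic reticulum chaperone lists passed the threshold.

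Across all compared genes, 22 rose (0.221%) and 44 fell (0.442%). The median log2 change was -0.02, 95.5% of the genes changed by less than 0.5 in size, and the central 95% of the genes lay between -0.50 and 0.46, as the plot of change against level shows. The 685 genes with a mean of 100 RPKM or more over both flox groups had a median change of -0.17, and the 4228 genes with a mean under 5 RPKM had 0.03. The deposited RPKM of all genes summed to 513694 on chow and 461725 on high fat. How the values were scaled between groups bears on the split of calls. Of the genes past the threshold, 33.3% were higher in the values as deposited, 35.8% after both groups were set to a median log2 ratio of 0, and 47.8% after each group's sum was made equal with the 50 most abundant genes left aside (32 rose and 35 fell). That last scaling moved the median change of all genes to 0.09. The 17 falls of cholesterol genes were 17 under each of these scalings. At the edge of the filter, Olfr1034, Chek2 and Hdac7 lay just inside with a higher value of 1.0 RPKM, and Flywch2, Ppp1r13l and H2-T10 just outside with 0.9996, 0.9996 and 0.9999 RPKM.

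**Figure D1:**
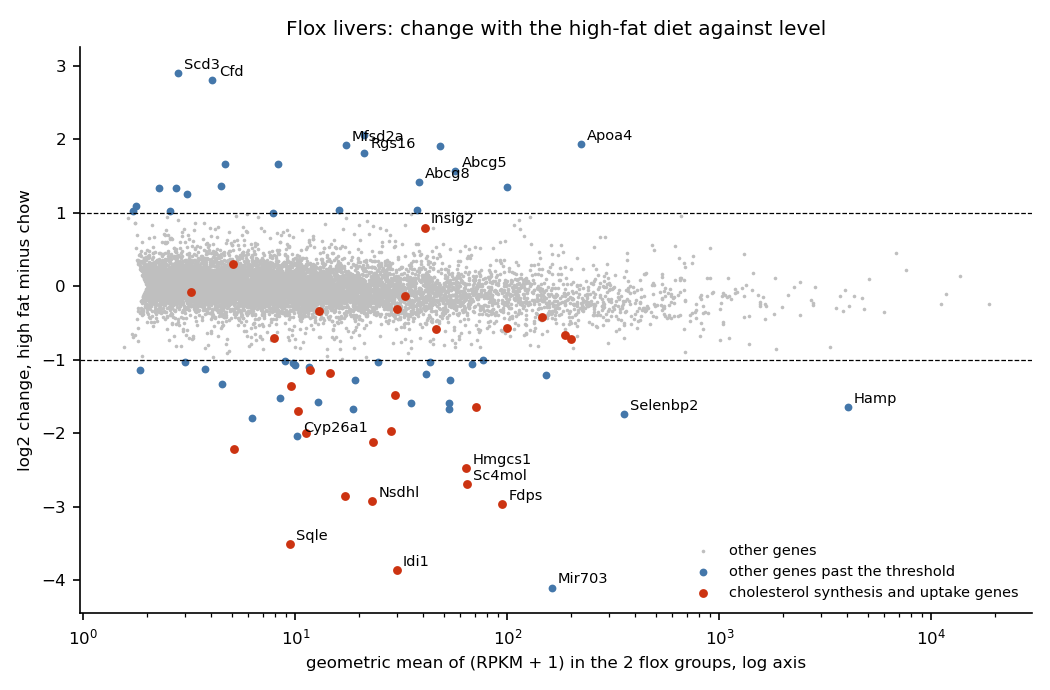
Each point is 1 of the 9958 compared genes, with the geometric mean of RPKM + 1 in the 2 flox groups on the horizontal log axis and the log2 change (high fat minus chow) on the vertical axis; dashed lines mark the thresholds of 1 and -1. Cholesterol synthesis and uptake genes, in red, reach down to -3.86 for Idi1 while most other genes lie between -0.5 and 0.5.

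Abundant hepatocyte genes and Y-linked genes were present in both flox groups. Apoa2, a major lipoprotein gene of hepatocytes, stood at 20260 RPKM on chow and 17124 RPKM on high fat, and Ttr, the transthyretin gene, at 5347 and 4302 RPKM. Alb, the serum albumin gene, was listed at 0 in all 4 groups, so an exact 0 in these files can be a failed estimate. The Y-linked genes Ddx3y (6.90 and 8.91 RPKM) and Eif2s3y (20.5 and 19.3 RPKM) were measured in both, and Xist, which is expressed from an inactive X chromosome, stood at 0.0430 and 0.00989 RPKM. Xbp1, the gene carrying the flox allele, stood at 112 RPKM on chow and 90.7 RPKM on high fat in flox livers, a log2 change of -0.30, and at 44.2 and 34.1 RPKM in the knockout livers.

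In the mevalonate pathway 7 of 9 genes fell, and the median log2 change of the 9 was -2.12, against -0.02 over all compared genes. The pathway opens with Acat2, which joins acetyl-CoA units, and Hmgcs1, the HMG-CoA synthase. Acat2 stood at 54.9 RPKM on chow and 36.6 on high fat (-0.57), and did not pass the threshold. Hmgcs1 (mm10 chromosome 13, 119690351 to 119708260) went from 150 to 26.2 RPKM, a log2 change of -2.48. The kinases and the decarboxylase that follow had changes between -2.21 and -2.00: Mvk went from 21.4 to 4.62 RPKM, Pmvk from 47.6 to 10.2 and Mvd from 10.1 to 1.4. Idi1, the isomerase of isopentenyl diphosphate (chromosome 13, 8885606 to 8892396), went from 113 RPKM on chow to 6.89 on high fat. That is 6.09% of the chow level and, at -3.86, the largest fall of any protein-coding gene compared. Fdps, the farnesyl diphosphate synthase (chromosome 3, 89093588 to 89101967), was the most abundant gene of the list on chow, at 261 RPKM, and stood at 32.8 RPKM on high fat (-2.96). Ggps1 leads off the sterol route to geranylgeranyl diphosphate, and stood at 2.31 and 2.14 RPKM (-0.08). The 2 genes that did not pass lie at the entry of the pathway and on its non-sterol exit.

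In the sterol branch 9 of 12 genes fell, with a median of -1.67, and all 12 were lower on high fat under each scaling. Sqle, the squalene epoxidase and a control point of the branch (chromosome 15, 59315092 to 59331193), stood at 30.7 RPKM on chow and 1.79 RPKM on high fat. Its 5.82% of the chow level was the lowest share in the 3 lists, and its log2 change was -3.51. Fdft1, the squalene synthase just before it, went from 48.0 to 16.7 RPKM (-1.47), and Lss, which closes the ring to lanosterol, from 17.6 to 4.71 RPKM (-1.70). The lanosterol demethylase gene Cyp51 went from 45.2 to 5.42 RPKM (-2.85). The removal of the next methyl groups is shared by Sc4mol (now Msmo1), Nsdhl and Hsd17b7. Sc4mol went from 162 to 24.4 RPKM (-2.69), Nsdhl from 62.3 to 7.37 RPKM (-2.92) and Hsd17b7 from 16.4 to 6.93 RPKM (-1.13). Dhcr7, one of the last reductases, went from 54.7 to 13.2 RPKM (-1.97). The entry that joins 1110014N23Rik with the sterol reductase gene Tm7sf2 went from 125 to 39.2 RPKM (-1.65), and its value cannot be assigned to either name alone. Among the genes of the branch that did not pass were its 2 most abundant on chow. Ebp, the sterol isomerase, stood at 235 and 149 RPKM (-0.66), and Sc5d, the sterol desaturase, at 253 and 154 RPKM (-0.71). Summed over the branch, the RPKM was 1217 on chow and 547 on high fat, and over the mevalonate list 682 and 129.

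**Figure D2:**
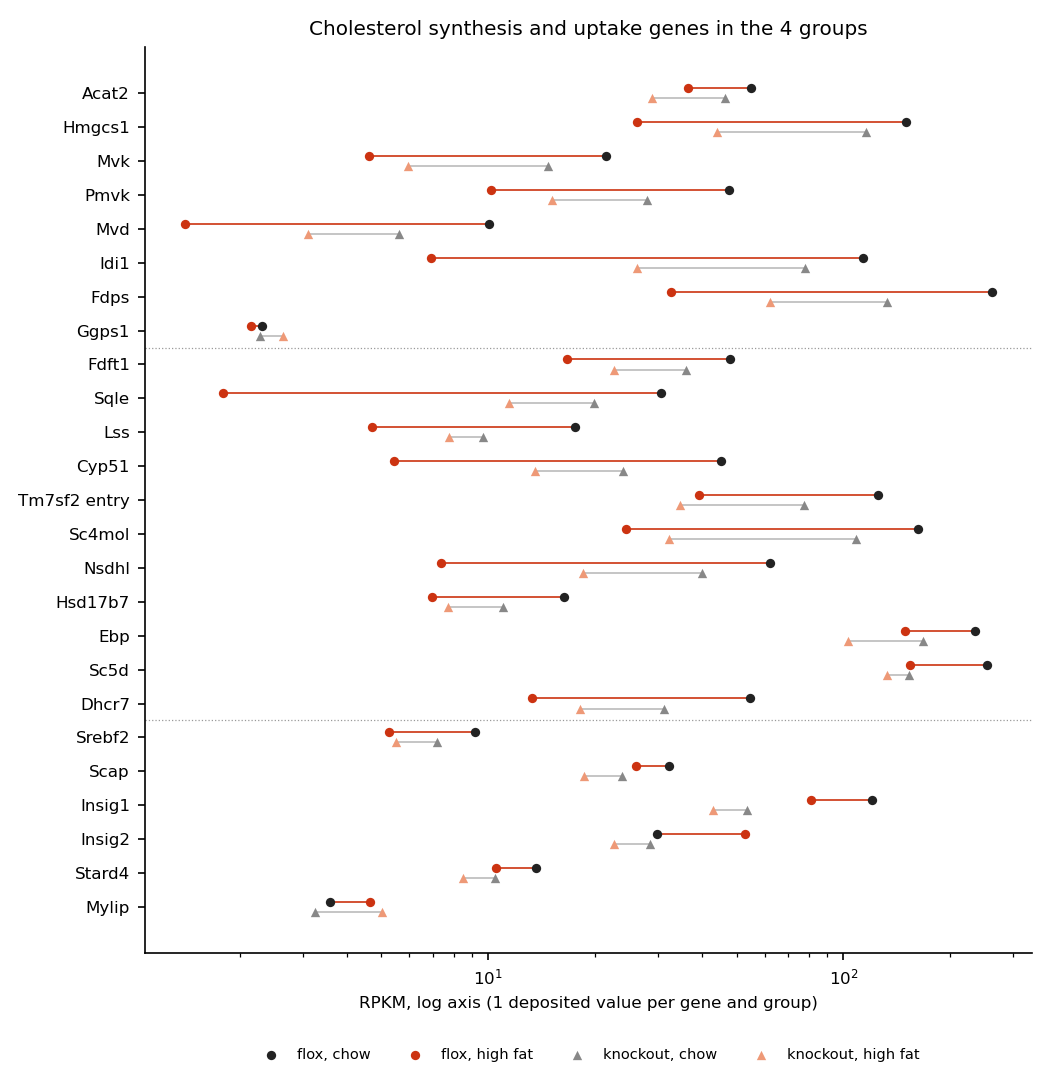
RPKM (log axis, 1 deposited value per gene and group) of compared cholesterol genes described in the text in flox livers (circles joined by a red line; black chow, red high fat) and knockout livers (triangles joined by a grey line); dotted lines separate the mevalonate pathway, the sterol branch and the sensing and uptake genes. The red lines run left from chow to high fat for each gene shown, the exceptions being Insig2 and Mylip, and are longest for Sqle and Idi1.

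The genes that sense sterol and govern its uptake moved less than the enzymes, with a median of -0.32 over 8 compared genes, of which 1 fell. Srebf2, which encodes SREBP2 itself, stood at 9.15 and 5.25 RPKM (-0.70), and Scap at 32.4 and 26.0 RPKM (-0.30). The 2 INSIG genes stood apart from each other. Insig1, a target of SREBP2, was at 120 RPKM on chow and 80.8 on high fat (-0.57), while Insig2 was at 29.9 and 52.8 RPKM (0.80). Mylip, a ubiquitin ligase gene of the LXR pathway, stood at 3.58 and 4.66 RPKM (0.31). Stard4, a cholesterol transfer protein gene, stood at 13.6 and 10.5 RPKM (-0.34). Npc1l1, the cholesterol absorption gene, was at 0.00302 and 0.00309 RPKM and was not compared. With an added 5 RPKM in place of 1, 14 of the 17 falls of the 3 lists remained past the threshold, and Hsd17b7 (-0.84) did not.

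The promoters of these genes were read for 2 short motifs, because the members moved together. The sterol regulatory element was searched as TCACNCCAC and the CCAAT box, which binds NF-Y, as CCAAT, both on both strands, in the 250 bases before each gene start in RefSeq promoters on GRCm38.p6. The first motif was in 1.05% of all 32851 promoters and in 1 of the 28 promoters of the cholesterol genes (3.57%), that of Hmgcs1. Of the 30 listed cholesterol genes 22 had a promoter in the table. The CCAAT box was in 33.8% of all promoters and in 20 of the 28 promoters of the cholesterol genes (71.4%). By gene, it was before 20 of the 22 cholesterol genes (90.9%), among them 12 of the 12 that fell. Those 12 fallen genes had 15 promoters, of which 12 held the box. The box was before 40.8% of the 8010 compared genes with a promoter and before 7 of the 17 that rose. It was before 19 of the 30 fallen genes of any kind, a count that includes the 12 cholesterol genes. The CCAAT search and the display of Idi1 and Mvk were chosen after their values were seen. A match is a run of letters and no evidence of binding. The search took 1 form of the sterol element within 250 bases, so the lack of a match does not show that a gene has no such element. Shown are Idi1, the largest fall, Hmgcs1, which holds the sterol element, the stretch between the divergent starts of Mvk and Mmab, which fell as a pair, and the stretch between the start of Abcg5 and the nearer of 2 Abcg8 starts in the table, genes that rose as a pair. The Mvk and Mmab stretch ends at 114444268, just past the start of the annotated Mvk span at 114444264. The other Abcg8 start lies upstream, inside the annotated span of Abcg5, so the last stretch shown is within the longer annotated span of Abcg8. All are on the plus strand of mm10, in lower case with both motifs in capitals, where ATTGG is a CCAAT box on the other strand and TCACCCCAC the sterol element.
Idi1, chr13:8885356-8885605: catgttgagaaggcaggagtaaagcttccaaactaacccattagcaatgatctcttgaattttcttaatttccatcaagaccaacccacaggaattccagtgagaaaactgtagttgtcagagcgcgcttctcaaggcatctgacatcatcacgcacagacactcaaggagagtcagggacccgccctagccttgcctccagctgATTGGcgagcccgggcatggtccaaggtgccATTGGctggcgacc
Hmgcs1, chr13:119690101-119690350: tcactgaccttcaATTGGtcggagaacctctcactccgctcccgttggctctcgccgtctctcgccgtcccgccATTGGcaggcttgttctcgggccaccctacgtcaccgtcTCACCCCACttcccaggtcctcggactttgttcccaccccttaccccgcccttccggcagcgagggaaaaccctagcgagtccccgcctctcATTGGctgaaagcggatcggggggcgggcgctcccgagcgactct
Mvk and Mmab, chr5:114444028-114444268: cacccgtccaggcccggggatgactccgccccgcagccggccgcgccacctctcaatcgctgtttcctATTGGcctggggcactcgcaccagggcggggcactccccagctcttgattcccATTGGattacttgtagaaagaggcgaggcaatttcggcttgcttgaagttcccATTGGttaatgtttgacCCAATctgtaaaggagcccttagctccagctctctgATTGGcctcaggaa
Abcg8 and Abcg5, chr17:84683012-84683120: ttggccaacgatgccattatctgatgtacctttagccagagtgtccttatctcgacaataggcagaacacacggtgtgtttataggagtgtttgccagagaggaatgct
The Idi1 stretch holds 2 CCAAT boxes, both near the start, the Hmgcs1 stretch 3 and 1 sterol element, and the 241 bases between Mvk and Mmab hold 5. Mmab, a cobalamin enzyme gene outside the cholesterol lists, went from 13.1 to 5.80 RPKM (-1.05), in the direction of its neighbour Mvk. The 109 bases between Abcg8 and Abcg5 hold 0 matches to either motif.

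The same diet comparison in the knockout livers shares no samples with the flox comparison and is given beside it. There 7 of the 29 cholesterol genes fell, against a background of 0.806%, and the median was -0.65 against -1.35 in flox. Over all genes compared in knockout livers the median was -0.11, and knockout changes are given as deposited, without the other scalings. The 7 were Fdps, Hmgcs1, Idi1, Mvk, Nsdhl, Sc4mol and the Tm7sf2 entry, and all 7 also fell in flox livers. In 24 of the 29 genes the change was lower in flox than in knockout, though the difference was not tested. All 29 genes were higher in flox chow than in knockout chow, and 18 were lower in flox high fat than in knockout high fat. These counts are of levels as deposited, and the shares over all genes are not given here. The RPKM of all genes summed to 513694 in flox chow and 461392 in knockout chow, and to 461725 and 367414 on high fat. Sqle stood at 30.7 and 1.79 RPKM in flox livers and at 19.9 and 11.4 RPKM in knockout livers (-0.75). Idi1 was at 78.1 and 26.3 RPKM in knockout livers, a change of -1.54. Over all genes, 17 were lower past the threshold in both genotypes, which is 38.6% of the 44 flox falls and 20.7% of the 82 knockout falls. Higher in both were 5 genes, 22.7% of the 22 flox rises and 7.25% of the 69 knockout rises (0.678% of the 10180 genes compared there), namely Acot3, Apoa4, Krt23, Mfsd2a and Serpina7.

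Outside the cholesterol lists, the largest falls included genes of retinoid, iron and acetate handling. Cyp26a1, the enzyme that clears retinoic acid and a target of it, stood at 19.6 RPKM on chow and 4.03 on high fat (-2.03). Rdh11, a retinal reductase gene, went from 21.1 to 6.43 RPKM (-1.57), so 2 of 13 retinoid genes fell while their list's median was -0.15. Hamp encodes hepcidin, the hormone that limits iron absorption. It was among the most abundant transcripts, at 7123 RPKM on chow and 2282 on high fat (-1.64), and was the 1 fall among 30 acute phase and iron genes. Acss2, which makes acetyl-CoA from acetate in the cytosol, went from 93.9 to 28.9 RPKM (-1.67). Aldoc, an aldolase more typical of brain, went from 10.7 to 2.37 RPKM (-1.79). Enho, the gene of the secreted peptide adropin, went from 13.3 to 3.99 RPKM (-1.52). Several of these falls had a counterpart in knockout livers, where Cyp26a1 changed by -1.10, Hamp by -1.08 and Enho by -1.55, while Acss2 (-0.31) and Rdh11 (-0.26) did not pass.

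Some falls lay in genes expressed more in male than in female liver and in gene families with similar copies. Selenbp2 went from 647 to 193 RPKM (-1.74) and in knockout livers from 367 to 57.1 RPKM (-2.66). Elovl3, a very long chain fatty acid elongase gene, went from 60.5 to 29.1 RPKM (-1.03). These 2 were the falls among 15 compared male-biased genes, whose median was -0.34. In knockout livers 9 of the 15 fell with a median of -1.32, against 0.806% and -0.11 over all genes compared there. Among the cytochrome P450 genes of drug metabolism 3 of 28 fell, all of the Cyp2c family. Cyp2c67 went from 229 to 98.9 RPKM (-1.20), Cyp2c40 from 6.11 to 1.83 RPKM (-1.33) and Cyp2c68 from 108 to 53.4 RPKM (-1.0). Cyp2c68 sat at the threshold and stood at -0.98 and -0.87 under the 2 other scalings, and Elovl3 stood at -0.90 without the 50 most abundant genes. With an added 5 RPKM, Cyp2c40 (-0.70), Cyp2c68 (-0.95) and Elovl3 (-0.94) did not pass. Gstm3, a glutathione transferase gene, went from 60.0 to 19.4 RPKM (-1.58) and was the 1 fall among 17 NRF2 and glutathione genes. In this list 14 were below 0 (11 after scaling without the 50 most abundant genes), while 46.8% of all genes (68.6% after that scaling) were above 0. The median of that list, -0.68, was the lowest outside the cholesterol lists among lists with at least 5 compared genes. Gsta2 stood at -0.99 (-1.05 with an added 0.1 RPKM), Gsta4 at -0.90 and Gstp1 at -0.82, the last from 4407 to 2492 RPKM. The compared members that are not transferases moved less, apart from Ugdh at -0.68. The rest were Nqo1 (-0.05), Gclc (0.09), Gclm (-0.04), Hmox1 (0.18), Srxn1 (0.13), Txnrd1 (-0.08) and Ephx1 (-0.14). Near-identical copies in the Cyp2c and glutathione transferase families can share reads, and how such reads were counted is not given in the sources used here. The chemokine gene Ccl9 went from 28.6 to 11.3 RPKM (-1.27), the level at which both knockout groups stood (11.9 and 11.5 RPKM).

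The rises were fewer than the falls, and several of the largest were in genes of lipid export and transport. Apoa4, an apolipoprotein of triglyceride-rich particles, stood at 113 RPKM on chow and 433 on high fat (1.93), and at 70.5 and 405 RPKM in knockout livers (2.5). Mfsd2a, which carries lysophospholipids into cells, went from 7.86 to 32.5 RPKM (1.92), and in knockout livers from 4.65 to 15.2 RPKM (1.52). These 2 rose in both genotypes. Abcg5 (chromosome 17, 84658174 to 84683011) and Abcg8 (84676302 to 84700333) encode the paired subunits of the transporter that exports sterols into bile. Abcg5 went from 32.0 to 96.7 RPKM (1.57) and Abcg8 from 22.4 to 61.6 RPKM (1.42) in flox livers. In knockout livers Abcg5 stood at 30.4 and 33.0 RPKM (0.11) and Abcg8 at 13.0 and 13.0 RPKM (0.00), so flox high fat was the group that stood out for both genes. Their annotated spans overlap on opposite strands, and whether the counting used strand is not given in the sources used here. Fabp2, a fatty acid binding protein better known from intestine, went from 61.3 to 159 RPKM (1.36), against 29.1 and 40.9 RPKM in knockout livers (0.48). Rgs16, a regulator of G-protein signalling, went from 10.2 to 38.7 RPKM (1.82), while the knockout groups were nearly level at 27.9 and 29.2 RPKM (0.06).

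**Figure D3:**
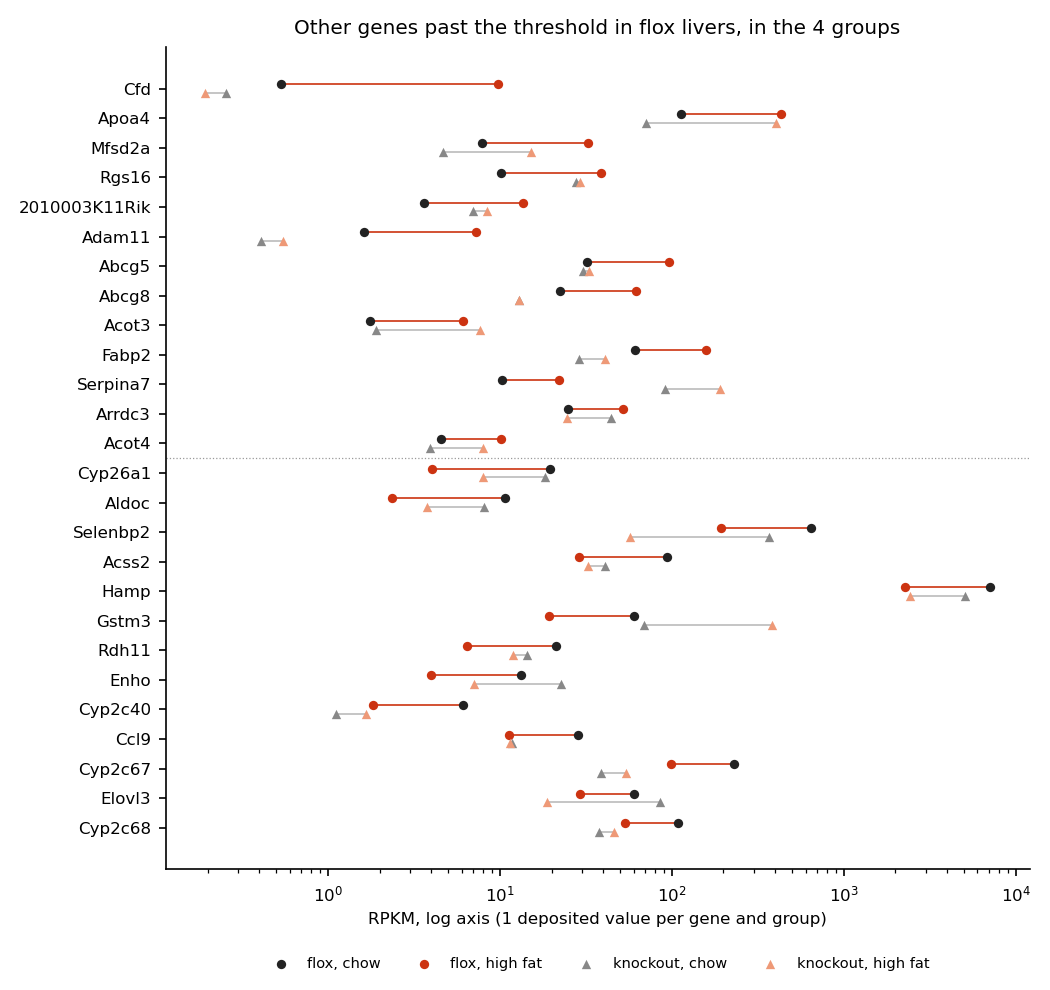
RPKM (log axis, 1 deposited value per gene and group) of named genes outside the cholesterol lists that rose (above the dotted line) or fell (below it) in flox livers, with flox as circles and knockout as triangles. Apoa4 and Mfsd2a move right with the diet in both genotypes, Abcg5 and Abcg8 move right in flox (1.57 and 1.42) and hardly in knockout (0.11 and 0.00), and Gstm3 moves left in flox and right in knockout.

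Among the smaller rises were 2 acyl-CoA thioesterase genes of a cluster on chromosome 12, Acot3 from 1.77 to 6.12 RPKM (1.36) and Acot4 from 4.54 to 10.1 RPKM (1.0). Their neighbours Acot1 (9.27 and 17.5 RPKM, 0.85) and Acot2 (1.93 and 3.57 RPKM, 0.64) were also higher on high fat without passing. Cidec, a lipid droplet protein gene, went from 0.989 to 3.74 RPKM (1.25) and was the 1 rise among 14 lipid droplet genes. Arrdc3, an arrestin family gene, went from 25 to 52.4 RPKM (1.04), and Serpina7, the thyroxine-binding globulin gene, from 10.2 to 22.1 RPKM (1.04). Adam11 went from 1.62 to 7.28 RPKM (1.66) and the unannotated 2010003K11Rik from 3.63 to 13.7 RPKM (1.67). With an added 5 RPKM in place of 1, Acot3 (0.72), Acot4 (0.66), Cidec (0.55), Arrdc3 (0.93), Serpina7 (0.83) and Adam11 (0.89) were no longer past the threshold.

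The stearoyl-CoA desaturase genes could not be read as a family. These enzymes make monounsaturated fatty acids, and Scd1 is the main form in liver. Scd1 stood at 929 RPKM in flox chow and was listed at 0 in flox high fat, and stood at 264 and 894 RPKM in the knockout groups, so it was left out of the comparison. In the same flox high-fat column, Scd3 went from 0.0156 to 6.62 RPKM (2.91, the largest rise compared), Scd2 from 0.723 to 3.36 RPKM (1.34, and 0.55 with an added 5 RPKM) and Scd4 from 0.0155 to 0.969 RPKM, under the filter. The 4 genes are similar in sequence and neighbours on chromosome 19, and how reads that match more than 1 of them were counted is unknown. In all, 11 genes were left out for a 0 in 1 flox group, 3 of them protein-coding. The other 2 were Apoe (13172 and 0 RPKM), which was also listed at 0 in knockout high fat, and Serpina1e (0 and 10004 RPKM).

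In lipid metabolism beyond sterols, the genes of fatty acid synthesis and its regulators were mixed, with 4 of 12 above 0, as were 46.8% of all genes. Srebf1, the gene of SREBP1c, stood at 79.7 RPKM on chow and 143 on high fat (0.84), and at 35.2 and 32.4 RPKM in knockout livers (-0.12). Acly, the ATP citrate lyase gene, stood at 65.3 and 37.1 RPKM (-0.80) and Acacb, an acetyl-CoA carboxylase gene, at 7.92 and 4.46 RPKM (-0.71). The carbohydrate sensor gene Mlxipl stood at 40.9 and 54.7 RPKM (0.41). Acss2 was the 1 fall among 12 compared genes of the list, whose median was -0.37. Acaca (0.27) and Pklr (0.36) were the others above 0. Slc25a1 (-0.65), Me1 (-0.57), Fasn (-0.43), Elovl6 (-0.31) and Thrsp (-0.30) were below 0. Among 9 compared desaturases and elongases, which leave out Scd1, the median was 0.43. The 2 rises of this list were Scd2 and Scd3, whose values are in doubt for the reason given above. Both count in the median. Its 1 fall was Elovl3 (-1.03). Elovl5, an elongase of polyunsaturated fatty acids, stood at 82.1 and 154 RPKM (0.90).

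Most fatty acid oxidation genes were above 0 without passing the threshold. Of 31 compared genes of oxidation and of the fatty acid receptor PPARA, 28 were above 0 (29 and 30 under the 2 other scalings, where 46.8%, 50% and 68.6% of all genes were in turn), with a median of 0.22, while 1 rose, Mfsd2a. Ppara stood at 32.9 and 57.9 RPKM (0.80). Acaa1b, a peroxisomal thiolase gene, stood at 470 and 913 RPKM (0.96), the fatty aldehyde dehydrogenase gene Aldh3a2 at 90.8 and 177 RPKM (0.95), and the fatty acid uptake gene Cd36 at 11.6 and 23 RPKM (0.94). These 3 passed when the groups were scaled without the 50 most abundant genes, at 1.09, 1.08 and 1.06. Fgf21, a hormone gene driven by PPARA, stood at 0.174 and 1.24 RPKM (0.93, and 2.29 with an added 0.1 RPKM in place of 1). The 3 genes below 0 were Cyp4a14, at 55.6 and 36.8 RPKM (-0.58), Ucp2 (-0.11) and Acaa2 (-0.02). Several others lay just above 0, among them Cyp4a10 (0.10), Acadl (0.05), Acadvl (0.04) and Hadha (0.02). In knockout livers 4 of the 31 rose, and the median was -0.05, against 0.678% and -0.11 over all genes compared there.

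The LXR and sterol efflux list had the highest median outside the cholesterol lists among lists with at least 5 compared genes, at 0.52 over 11 genes, of which Abcg5 and Abcg8 rose. The cholesterol exporter genes Abca1 (11.8 and 21.0 RPKM, 0.78) and Abcg1 (0.978 and 1.99 RPKM, 0.59) were higher without passing, and the LXR gene Nr1h3 stood at 42.8 and 39.4 RPKM (-0.12). In knockout livers 0 of the 11 passed, and the median was 0.06, against -0.11 over all genes compared there. Bile acid genes had 0 of 17 past the threshold and a median of -0.03, which was 0.10 without the 50 most abundant genes. Cyp7a1, the rate-limiting enzyme of bile acid synthesis, stood at 31.5 and 26.0 RPKM (-0.27). Cyp8b1, which sets the type of bile acid made, stood at 183 and 104 RPKM (-0.81), and Cyp7b1, of the alternative route, at 168 and 96.2 RPKM (-0.80). The canalicular transporter genes Abcc2 (0.55) and Abcb4 (0.52) were above 0. Of 19 apolipoprotein and lipoprotein assembly genes Apoa4 rose and none fell, with a median of 0.02. Apob, the structural protein of very low density lipoprotein, stood at 227 and 362 RPKM (0.67), Apom at 271 and 151 RPKM (-0.84), and Gm6484, the older symbol of Angptl8, at 54.5 and 32.2 RPKM (-0.74).

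**Figure D4:**
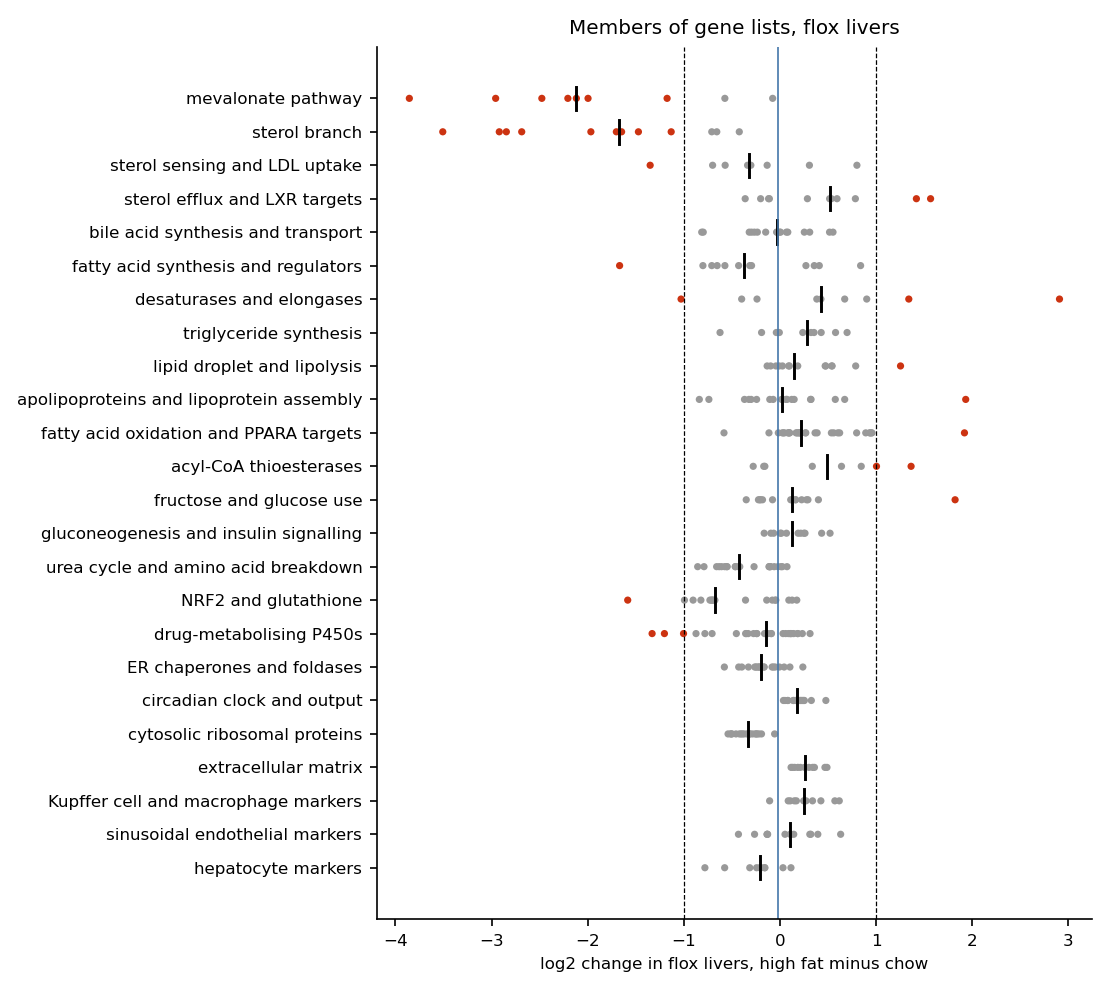
Log2 change in flox livers (high fat minus chow) of each compared member of 24 gene lists, with members past the threshold in red, list medians as black bars, the median of all compared genes as a blue line and the thresholds of 1 and -1 as dashed lines. The mevalonate and sterol branch medians lie at -2.12 and -1.67, and the other medians shown lie between -0.68 and 0.52.

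Triglyceride synthesis had 0 of 10 genes past the threshold and a median of 0.28. Gpam, which starts glycerolipid synthesis, stood at 20.9 and 34.5 RPKM (0.70), and the phosphatidate phosphatase genes Lpin1 and Lpin2 lay on opposite sides of 0, at -0.62 and 0.58. The lipid droplet list had a median of 0.14, with G0s2, an inhibitor of lipolysis, at 86.1 and 149 RPKM (0.79). Carbohydrate genes were close to level. Rgs16 was the 1 rise among 15 genes of the fructose and glucose list (median 0.13) and 0 of 12 gluconeogenesis and insulin signalling genes passed (median 0.13).

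Most urea cycle and amino acid genes were below 0, with 0 of 22 past the threshold. Of these, 19 were below 0 (18 at a median log2 ratio of 0 and 13 without the 50 most abundant genes), and the median was -0.42. Over all genes, 46.8%, 50% and 68.6% were above 0 under the same 3 scalings. Ass1, the argininosuccinate synthase gene, stood at 2490 and 1376 RPKM (-0.86), the aspartate aminotransferase gene Got1 at 87.9 and 50.4 RPKM (-0.79), and the glutaminase gene Gls2 at 150 and 94.7 RPKM (-0.66). In knockout livers 9 of the 22 fell, with a median of -0.91, against 0.806% and -0.11 over all genes compared there. Of 12 genes typical of the periportal zone, several of them urea cycle genes, 0 passed (median -0.38), and of 12 pericentral genes 0 passed (median -0.12, and 0.01 without the 50 most abundant genes).

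Genes of the unfolded protein response, which Xbp1 controls in part, were not past the threshold with the diet in flox livers. Of 19 chaperones and foldases of the endoplasmic reticulum 0 passed, with a median of -0.20, and Sdf2l1, a chaperone cofactor gene, stood at 35.4 and 23.4 RPKM (-0.58). Of 14 compared stress sensors and integrated stress response genes 0 passed, with a median of 0.17. Asns, the asparagine synthetase gene, stood at 4.02 and 1.82 RPKM (-0.83, and -1.10 with an added 0.1 RPKM), and Ern1, the gene of the sensor IRE1, at 3.86 and 5.39 RPKM (0.39).

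In some lists nearly all members lay on 1 side of 0 without passing the threshold. The circadian list had 18 of 18 compared genes above 0 under each scaling, where 46.8%, 50% and 68.6% of all genes were, with changes between 0.04 and 0.48 and a median of 0.18. Per1, a core clock repressor gene, led it at 3.12 and 4.74 RPKM (0.48). Of 11 extracellular matrix genes 11 were above 0 under each scaling, between 0.12 and 0.49, with Col3a1, a fibrillar collagen gene, at 2.72 and 4.23 RPKM (0.49). The 20 cytosolic ribosomal protein genes were all below 0, between -0.54 and -0.06 (19 of 20 without the 50 most abundant genes), and 17 of 20 nuclear genes of oxidative phosphorylation were below 0, with a median of -0.19 (13 of 20 without those genes), while the 685 genes with a mean of 100 RPKM or more had a median of -0.17. Reference genes also varied, with Ppia at 1016 and 638 RPKM (-0.67). Of the 47 lists outside the 3 cholesterol lists, 28 had 0 members past the threshold. Some of the 28 had few compared genes, among them muscle and mesothelium markers with 0 and lymphocyte markers with 1. The 28 include interferon-stimulated genes (20 compared, median 0.18), lysosome and autophagy genes (20, median 0.02), carboxylesterases (12, median -0.20), immediate early genes (10, median -0.33) and cell cycle genes (7, median 0.03). Of 8 compared female-biased liver genes 1 rose, Acot3, and the median was 0.09.

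In bulk tissue, fewer cells of a type and less RNA per cell cannot be told apart, so markers of other cells are given. Over all compared genes 46.8% were above 0. Of 11 compared Kupffer cell and macrophage markers 10 were above 0 and 0 passed, with a median of 0.25. Their whole list summed to 178 RPKM on chow and 215 on high fat. Emr1, the F4/80 gene, stood at 3.13 and 5.33 RPKM (0.62). Sinusoidal endothelial markers summed to 187 and 175 RPKM, stellate cell markers to 171 and 170 RPKM, and cholangiocyte markers to 28.9 and 30.4 RPKM. Of their compared genes 0 of 13, 0 of 11 and 0 of 4 passed the threshold. In the same order 8, 7 and 3 genes were above 0, with medians of 0.11, 0.10 and 0.05. Blood markers summed to 1297 and 1751 RPKM, with 4 of 5 compared genes above 0, 0 past the threshold and a median of 0.39. The globin entries led them, Hba-a1,Hba-a2 at 0.44 and Hbb-b1,Hbb-b2 at 0.57. Of 10 hepatocyte markers 2 were above 0 and 0 passed, with a median of -0.20. Without the 50 most abundant genes again 2 of the 10 were above 0, where 68.6% of all genes were. Cfd, the adipsin gene, went from 0.533 to 9.76 RPKM (2.81), with 0.257 and 0.193 RPKM in knockout livers, and is abundant in fat tissue. It was the 1 rise among 5 compared adipocyte markers of 11 listed, which summed to 2759 and 2124 RPKM, nearly all of it Car3, a gene that liver also expresses. The median change of the 5 compared was 0.06. Among listed markers that were not compared, Adipoq stood at 0.0300 and 0.0259 RPKM, Plin1 at 0.00700 and 0 RPKM and Lep at 0 in both. Of 10 pancreatic acinar markers Cela1 alone was compared (12.2 and 6.47 RPKM, -0.82), and 8 were listed at 0 in both flox groups.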

How the data were processed

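RNA of mouse liver was sequenced in 8 libraries, 2 for each of 4 groups, and 1 value per gene and group was analysed here. The authors deposited these values as RPKM, per the file headers. The submitters' processing notes name the tools TopHat2 2.0.7 and Cuffdiff 2.1.1 and the build mm10 without their roles. The sources used here do not give the annotation, the scaling between groups or the way 2 libraries became 1 value. Files were matched to groups through the group part of the sample titles, which stands in the file names.

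Each file held 23179 rows and 22923 symbols, and rows of the 158 repeated symbols were summed. Depth is unknown: among 1386 genes under 0.05 RPKM in both flox groups, the commonest ratio between groups (bins of 0.02 on the log2 scale) held 3.25% of the genes, so read numbers were not recovered and no interval or floor is given. Changes were taken on the log2(RPKM + 1) scale, and called at an absolute value of at least 1. With 1 value per group there was no test and no p-value.

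The text names, among called genes with at least 5 RPKM in a flox group and no small RNA genes, up to 15 rises (14 qualified) and 15 falls, the members of the cholesterol lists, up to 4 members of each other list with the largest absolute change, and Xbp1, Srebf1, Srebf2, Nr1h3, Ppara, Mlxipl, Cyp7a1, Scd1 and Alb. Some genes that the rule names are not reported here. Genes at a limit of the filter, at 0, or used to check tissue and sex are named outside this rule, as are Krt23, Mmab and the genes under other observations, which were chosen after their values were seen. So are the smaller changes named in the glutathione, fatty acid synthesis and fatty acid oxidation lists. The comparison, its members and the 50 gene lists were chosen with earlier results of these data known. Gene positions and promoters came from RefSeq on GRCm38.p6, the assembly of mm10, matched by symbol for 9896 genes (99.4%).

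The 10 alternatives were pseudocounts of 0.1 and 5 RPKM, a filter of 5 RPKM or none, the highest of repeated rows, calling at 1.5-fold, a median log2 ratio of 0, equal sums without the 50 most abundant genes, zeros kept, and small RNA genes left out. Calculations used Python 3.11.15, numpy 2.4.6, pandas 2.3.3 and matplotlib 3.10.9, and were tested on simulated data.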

Additional observations from a re-analysis of the deposited data

Results flagged for a closer look

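Gstm3, a mu-class glutathione transferase gene, moved in opposite directions in the 2 genotypes. In flox livers it stood at 60.0 RPKM on chow and 19.4 RPKM on high fat, a log2 change of -1.58, and in knockout livers at 68.9 and 384 RPKM, a log2 change of 2.46. Knockout high fat was thus the high group and flox high fat the low one, with both chow groups close together. The difference between the genotypes was not tested, because each group has 1 value. Similar copies in this family can share reads.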

How the results depend on the processing

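No paired analysis was possible because the files carry 1 value per gene and group, and for the same reason no library could be left out. The count of genes that rose, 22, was 52 with a pseudocount of 0.1 RPKM, 11 with 5 RPKM and 126 at a threshold of 1.5-fold. The count that fell, 44, was 29 with a pseudocount of 5 RPKM and 172 at 1.5-fold. Under the other alternatives 16 to 32 genes rose and 35 to 62 fell. Of the cholesterol genes 14 to 20 fell under the 10 alternatives, and the 14 came with a pseudocount of 5 RPKM, at which Hsd17b7 stood at -0.84. That pseudocount took 13 of the 46 named called genes below the threshold, while 1 was lost at a median log2 ratio of 0 and 2 without the 50 most abundant genes. Named genes gained were 5 with a pseudocount of 0.1 RPKM, 4 without the 50 most abundant genes and 49 at 1.5-fold. No named gene changed direction while called. The medians of 6 lists changed sign without the 50 most abundant genes, those of bile acid, acute phase, complement, hepatokine, housekeeping and pericentral genes, as did 4 with the filter of 5 RPKM and 1 with no filter. Depth is unknown, so which low genes could show a change cannot be stated, and every value rests on 1 pooled number per group.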

Other observations

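Other genes passed the threshold in flox livers and were chosen for mention after their values were seen. Csad, which makes hypotaurine for taurine synthesis, stood at 61.2 RPKM on chow and 26.2 on high fat (-1.19), and it also fell in knockout livers (-1.38). Fabp5, a fatty acid binding protein gene, stood at 16.0 and 6.94 RPKM (-1.09), and at 16.7 and 14.7 RPKM in knockout livers (-0.17). Cd207, the langerin gene, stood at 3.32 and 1.12 RPKM (-1.02). The protease gene Prss8 stood at 4.53 and 1.53 RPKM (-1.13), and Eif4ebp3, a translation repressor gene, at 33.9 and 16.1 RPKM (-1.02). Among those with higher levels were 0610007P14Rik at 82.4 and 33.6 RPKM (-1.27) and 1810008I18Rik at 97.4 and 46.2 RPKM (-1.06).

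Among the rises, the keratin gene Krt23 stood at 0.803 and 2.67 RPKM (1.02), and it rose in knockout livers as well (1.19). Stap1, a signalling adaptor gene, stood at 0.208 and 1.57 RPKM (1.09). Fmr1nb stood at 0.423 and 2.59 RPKM (1.34) in flox livers and at 2.06 and 0.222 RPKM (-1.32) in knockout livers.

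Small RNA genes gave some of the largest values. Mir703 had the largest fall of all compared genes, from 669 to 38.1 RPKM (-4.10), and Snora15 went from 91.1 to 29.8 RPKM (-1.58). Rpph1, the RNA of ribonuclease P, went from 9.31 to 41.9 RPKM (2.06) and Snora64 from 23.7 to 91.9 RPKM (1.91). Of the 11 genes left out for a 0 in 1 flox group, 8 were small RNA genes, among them Snora30 (0 and 92.3 RPKM) and Mir215 (0 and 31.9 RPKM).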
